A study of Arabidopsis thaliana with 18 samples.

Results

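SAL2 (AT5G64000, on chromosome 5) encodes a phosphatase described as a bisphosphate nucleotidase and inositol phosphatase, and its transcript was followed with its single probe set on 18 Affymetrix ATH1 arrays. It is 1 gene of the 13513 whose probe set matched a single gene. It was chosen by its signals in these same arrays, shoots against roots and potassium starvation against caesium, so its own values are given as a description without a test. The plants were Arabidopsis thaliana, ecotype Ws-2, grown in a growth room. Potassium-starved plants received a dilute MS nutrient solution lacking potassium, caesium-treated plants a dilute MS solution to which 2 mM caesium had been added, and for control plants the labels spell out no treatment. Shoots and whole roots were taken, which gave 6 groups of 3 samples: potassium-starved, caesium-treated and control shoots, and potassium-starved, caesium-treated and control roots. A sample held the pooled material of 40 to 50 plants, and 1 array was run for it. The labels do not say whether replicates came from separate sowings, so the p-values below measure the spread between these samples, which may be technical.

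The bisphosphate nucleotidases of this family remove a phosphate from 3'-phosphoadenosine 5'-phosphate (PAP). PAP is the by-product left when sulfotransferases take sulfate from the activated donor PAPS. Some enzymes of the family act on inositol phosphates. PAP inhibits exoribonucleases, and in Arabidopsis the best-studied member, SAL1, is known for limiting PAP. In yeast the related enzyme HAL2 is inhibited by lithium and sodium, which ties the family to the toxicity of alkali metal ions. Caesium is an alkali metal ion that enters plants through potassium transport routes, so the design sets a lack of potassium beside an excess of a potassium analogue.

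SAL2 was high in the shoots of potassium-starved plants and in no other group. Its signal, the authors' scaled brightness of the probe set on a linear scale, was 618.3, 324.5 and 391.7 in replicates 1, 2 and 3 of potassium-starved shoots. It was 22.7, 38.3 and 22.9 in caesium-treated shoots and 19.2, 51.6 and 5.6 in control shoots. The 3 potassium-starved arrays lay far above the other 6 shoot arrays, and the caesium-treated and control arrays overlapped. In roots the signal was 98.6, 87.3 and 98.1 under potassium starvation, 80.6, 105.5 and 116.8 under caesium and 106.2, 90.4 and 78.6 in controls. The 3 root groups overlapped one another. The lowest potassium-starved shoot array, at 324.5, was above the highest of the 15 other arrays, a caesium-treated root array at 116.8. In these whole-organ samples more cells that express SAL2 and more SAL2 RNA per cell cannot be told apart.

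The group means were 445 ± 154 in potassium-starved shoots, 28.0 ± 8.95 in caesium-treated shoots and 25.5 ± 23.6 in control shoots (SD, n = 3 each). They were 94.7 ± 6.38 in potassium-starved roots, 101 ± 18.5 in caesium-treated roots and 91.7 ± 13.8 in control roots (SD, n = 3 each). Ordered by mean, potassium-starved shoots came first, then the 3 root groups, which did not differ beyond their spread, and then caesium-treated and control shoots, which did not differ beyond theirs. The control shoot mean was below the floor of 26.7 used in shoots to choose probe sets for testing, the 40th percentile of mean levels, so SAL2 in control shoots was near the bottom of what these arrays separate. Control shoots also varied most for their level, with replicate 2 at 51.6 and replicate 3 at 5.6.

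**Figure D1:**
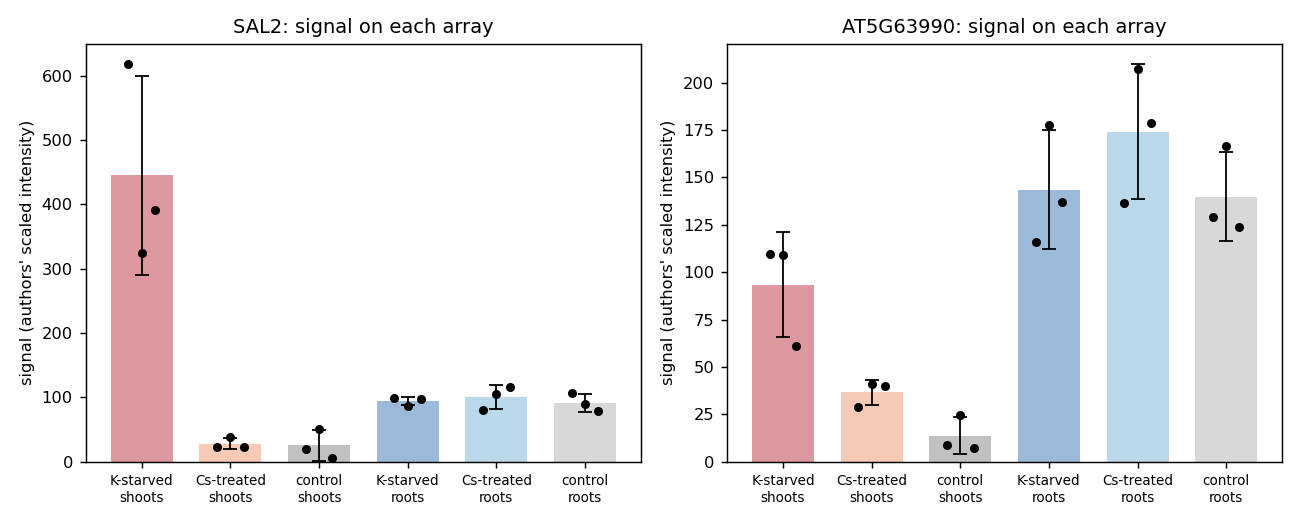
Signal of SAL2 (left) and of the related gene AT5G63990 (right) on each array, in the authors' scaled intensity units, with points for replicates 1 to 3 from left to right, bars for group means and error bars for the SD (n = 3). SAL2 reached 324.5 to 618.3 in potassium-starved shoots and at most 116.8 elsewhere, whereas AT5G63990 was highest in the root groups.

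On the scale of log2(signal + 16), where 16 is added to steady low signals, SAL2 was 3.58 ± 0.37 higher in potassium-starved than in control shoots (difference ± SE). The same groups did not overlap, with the potassium-starved one higher, for 17.2% of the probe sets tested. Because the control mean lay below the floor, this size depends on the 16 added: it was 4.49 with 1 added and 2.50 with 64 added. It ranged between 3.19 without control replicate 3 and 4.01 without control replicate 2 when single arrays were left out. The median of all tested probe sets in this comparison was -0.12, and with each array centred on its median the SAL2 difference was 3.69.

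Caesium gave no such difference in shoots. SAL2 was 0.22 ± 0.37 higher in caesium-treated than in control shoots on the log2 scale, with overlapping arrays, and this value ran between -0.17 and 0.65 when single arrays were left out. Set directly against each other, potassium-starved shoots were 3.36 ± 0.37 above caesium-treated shoots, and the caesium-treated mean was only just above the floor. The potassium-starved group lay wholly above the caesium-treated one for 15.9% of probe sets tested. The direct difference was 3.93 with 1 added to the signals and 2.43 with 64 added. This comparison and the one with control share the potassium-starved arrays, so they are not independent of each other.

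In roots SAL2 did not differ beyond its spread under either treatment. Potassium-starved roots differed from control roots by 0.05 ± 0.16, caesium-treated from control roots by 0.11 ± 0.16, and potassium-starved from caesium-treated roots by -0.07 ± 0.16 on the log2 scale. The arrays overlapped in all 3 comparisons. The standard error in roots was under that in shoots, where the control signals were low and scattered.

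The order of the organs turned with the treatment. SAL2 in control shoots was below control roots by a log2 difference of -1.53 ± 0.30, and caesium-treated shoots were below caesium-treated roots by -1.42 ± 0.30, in both cases without overlap. Such complete separation with shoots lower was found for 36.9% of the 15427 probe sets compared in controls and 35.2% under caesium. In potassium-starved plants the order was the opposite, with shoots 2.01 ± 0.30 above roots and a ratio of means of 4.70, and the groups again did not overlap. The same separation with shoots higher held for 25.7% of probe sets.

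The response of shoots to potassium starvation exceeded that of roots by 3.54 ± 0.43 on the log2 scale. For caesium the shoot response minus the root response was 0.11 ± 0.43. The difference between potassium starvation and caesium was larger in shoots than in roots by 3.43 ± 0.43. With 1 added to the signals these organ differences of response were 4.43 for starvation and 4.01 for starvation against caesium, and with 64 added 2.47 and 2.48.

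The organ labels were checked with marker genes. PRK, phosphoribulokinase of the Calvin cycle, had signals of 641 to 2441 in shoots and 12.4 to 32.1 in roots. RCA, which activates Rubisco, ran from 2115 to 3719 in shoots and from 40.5 to 186 in roots. EXPA7, an expansin of root hair cells, had 14.0 to 24.4 in shoots and 49.4 to 89.5 in roots. PYK10, a beta-glucosidase abundant in roots, had 1915 to 3501 in roots, but it also reached 903 in potassium-starved, 949 in caesium-treated and 1200 in control shoots, each time in replicate 2. Of 6 root markers 3 had a probe set, and their summed signal was 78.7 to 937 in potassium-starved shoots, 165 to 997 in caesium-treated shoots and 203 to 1253 in control shoots, with none at 0. The highest of these sums were mostly PYK10, since EXPA7 was low in shoots and EXPA18 had 15.2 to 30.1 there, against 70.0 to 142 in roots. Of 7 shoot markers 4 had a probe set, and their sum was 4424 to 6730 in potassium-starved shoots, 6892 to 8582 in caesium-treated shoots and 8823 to 9625 in control shoots. In roots the sum of the shoot markers was 90.8 to 172 under starvation, 203 to 283 under caesium and 63.9 to 164 in controls.

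SAL2 and PYK10 did not run together over the potassium-starved shoots: replicate 1 had the highest SAL2 signal, 618.3, and the lowest PYK10 signal, 46.9. In caesium-treated and control shoots replicate 2 was highest for both genes. All 3 potassium-starved shoot arrays had more SAL2 signal than any root array. The part of root material in the low shoot values, and of the lower shoot marker sum in the potassium-starved values, was not tested.

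The other phosphatase genes of the family came from a list drawn up from general knowledge with earlier results of these arrays known. It held 9 genes, 6 of which, SAL2 included, had a probe set of their own, and SAL1, IMPL1 and IMPL2 were not analysed here. All 5 besides SAL2 were tested, with limma's moderated test and Benjamini-Hochberg adjustment over all probe sets and a threshold of 0.05. In potassium-starved against control shoots 1 of these 5 rose and 0 fell, where 12.1% of all tested probe sets rose and 17.1% fell. Their median log2 difference was -0.26, against -0.12 over all probe sets.

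The gene that rose was AT5G63990, which lies 2 annotated genes before SAL2 on the same chromosome. Its signal was 109.8, 109.1 and 61.3 in potassium-starved shoots, 28.9, 41.1 and 39.8 in caesium-treated shoots and 8.9, 24.9 and 7.3 in control shoots. The 3 shoot groups did not overlap, with caesium-treated shoots between the other 2 groups. Starved shoots lay wholly above control for 17.2% of probe sets tested and above caesium-treated for 15.9%. Caesium-treated shoots lay wholly above control for 14.8%. It rose by 1.89 ± 0.25 on the log2 scale in potassium-starved against control shoots (limma adjusted p = 0.000646), and its control mean too lay below the floor. AT5G63990 passed the floor in shoots only through the high starved arrays, so its being tested there rested on that group. The call held in all 6 fits with 1 array left out, with adjusted p between 0.000327 and 0.00458.

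AT5G63990 was also higher in potassium-starved than in caesium-treated shoots, by 1.03 ± 0.25 (limma adjusted p = 0.0145), as 1 of the 5 family genes, where 9.72% of all probe sets rose. It was tested in shoots only through its high starved arrays, so this call and this count rest on that group too. Without caesium-treated replicate 1 the adjusted p was 0.0572 and without potassium-starved replicate 2 it was 0.0582, so the call was lost in these fits. For caesium-treated against control shoots the difference was 0.86 ± 0.25 with an adjusted p of 0.129 in limma, and 0 of 5 family genes passed, where 0.997% of probe sets did. These shoot arrays pair by replicate number, and with that number as a block the adjusted p was 0.0332 and the call was made.

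In roots AT5G63990 had signals of 115.9, 177.6 and 137.1 under potassium starvation, 136.3, 207.4 and 178.7 under caesium and 129.3, 166.7 and 123.7 in controls. The root groups overlapped. The starved-minus-control difference was 0.03 ± 0.19 (limma adjusted p = 0.954). The shoot response to starvation exceeded the root response by 1.87 ± 0.33 (limma interaction, adjusted p = 0.00197), 1 of the 5 family genes where 5.08% of all probe sets rose, and this call held in all 12 fits with 1 array left out. For starvation against caesium the shoot value exceeded the root value by 1.28 ± 0.33 (limma interaction, adjusted p = 0.0212), again 1 of 5 where 5.26% rose. That call was lost with 1 added to the signals (adjusted p = 0.0564) and without both root arrays whose titles mark them as repeats (0.114). It was also lost without caesium-treated shoot replicate 1 (0.0547), potassium-starved root replicate 1 (0.0593) or potassium-starved shoot replicate 2 (0.0568). For the caesium response 0 of 5 family genes differed between the organs, where 0.214% of probe sets did, and AT5G63990 had 0.58 ± 0.33 (limma interaction, adjusted p = 0.565).

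AT5G63990 differed from SAL2 in the place of potassium-starved shoots among the groups. Its starved shoot signals, 61.3 to 109.8, all lay below its lowest root signal of 115.9, whereas those of SAL2 all lay above every root signal. Both genes were lower in control shoots than in control roots, AT5G63990 by a log2 difference of -2.43 ± 0.24 (limma adjusted p = 7.51e-08). Signal shared between the probe sets of these related genes was not tested, since the probe sequences were not used here.

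None of the other 4 family genes passed the test in any of the 6 treatment comparisons within an organ. AT5G09290 had 58.9 to 71.1 in potassium-starved, 44.6 to 67.2 in caesium-treated and 40.6 to 50.0 in control shoots. Its difference between potassium-starved and control shoots was 0.40 ± 0.16 (limma adjusted p = 0.0901), and it passed with each array centred on its median (0.51, adjusted p = 0.0444) and with quantile normalization (0.52, adjusted p = 0.0406). HL, a HAL2-like bisphosphate nucleotidase, differed by -0.26 ± 0.21 between potassium-starved and control shoots (limma adjusted p = 0.379). AT4G05090 differed by -0.40 ± 0.16 (limma adjusted p = 0.0769). VTC4, which acts on L-galactose 1-phosphate in ascorbate synthesis and on inositol phosphate, differed by -0.31 ± 0.38 (limma adjusted p = 0.570).

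In roots the starved-minus-control differences of these 4 genes ran from -0.66 for VTC4 to 0.37 for AT5G09290, with adjusted p of 0.253 or more in limma. In that root comparison 0 of the 5 family genes passed, where 1.47% of all probe sets did. For caesium against control roots 0 of 5 passed, as did 0 of 13647 probe sets, of which 1352 had an unadjusted p under 0.05. For potassium-starved against caesium-treated roots 0 of 5 passed, where 5.06% of probe sets did. With the replicate number as a block, VTC4 was lower in potassium-starved than in caesium-treated roots (-0.80, adjusted p = 0.0307, against 0.249 without the block), although replicate numbers were not found to pair the arrays of that comparison.

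The family was split by organ. All 5 genes differed between control shoots and control roots in limma over the 18 arrays, where 55.9% of 15427 probe sets did. AT5G63990 and AT5G09290 were lower in shoots, the direction seen for SAL2, and AT5G09290 had a log2 difference of -1.90 ± 0.16 (adjusted p = 1.21e-08). HL was higher in shoots by 0.75 ± 0.18 (limma adjusted p = 0.00187), AT4G05090 by 0.70 ± 0.13 (adjusted p = 0.000147) and VTC4 by 1.38 ± 0.44 (adjusted p = 0.0121). The VTC4 call was lost without control shoot replicate 1 (adjusted p = 0.0607) or control root replicate 2 (0.0802).

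**Figure D2:**
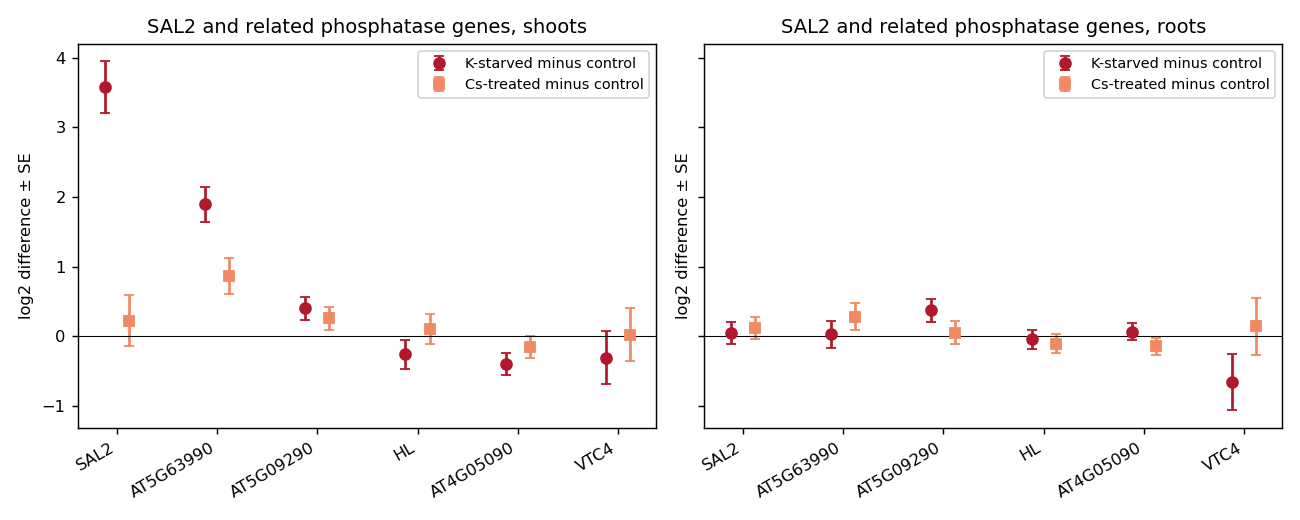
Log2 difference of signal + 16 between treated and control shoots (left) and roots (right) for SAL2 and the 5 related phosphatase genes, with circles for potassium-starved minus control, squares for caesium-treated minus control and bars for the SE of the limma fit. SAL2 at 3.58 and AT5G63990 at 1.89 stand above the other genes in starved shoots, and all root values lie between -0.66 and 0.37.

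Genes around the substrates of these enzymes were followed through 4 further lists of the same origin. Sulfate activation and PAPS use had 4 of 19 genes with a probe set, sulfate transport and sulfur starvation 1 of 15, exoribonucleases and genes that respond to PAP 1 of 9, and inositol phosphate metabolism 3 of 37, of which 1 was above the floor. These few genes are what could be assessed, and the rest of each pathway was not analysed here.

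In sulfate activation 0 of 4 genes passed between potassium-starved and control shoots, where 12.1% of all probe sets rose and 17.1% fell. SIR, sulfite reductase, had 593.6, 515.9 and 605.8 in potassium-starved shoots, 709.7, 890.3 and 798.7 in caesium-treated shoots and 563.0, 656.4 and 632.3 in control shoots. It was lower in potassium-starved than in caesium-treated shoots by a log2 difference of -0.47 ± 0.15 (limma adjusted p = 0.0405). TAAC, a plastid carrier that moves PAPS and ATP, was lower there as well by -0.43 ± 0.15 (limma adjusted p = 0.0494), so that 2 of 4 fell where 18.7% of probe sets did. Both calls were lost in all 6 fits with 1 array left out, with adjusted p up to 0.140 for SIR and 0.183 for TAAC, and with arrays centred on their median (0.173 and 0.248). APS4, an ATP sulfurylase, was not called in that comparison (-0.67 ± 0.39, limma adjusted p = 0.226), but it was lower with the replicate number as a block (adjusted p = 0.0337).

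In roots APS4 had 254.1, 251.7 and 288.2 under potassium starvation, 466.6, 614.8 and 510.7 under caesium and 299.3, 405.1 and 267.8 in controls. The starved arrays lay wholly below the caesium-treated ones, as they did for 16.4% of probe sets tested. APS4 was lower in potassium-starved than in caesium-treated roots by a log2 difference of -0.96 ± 0.17 (limma adjusted p = 0.0146), 1 of 4 genes of its list where 2.50% of probe sets fell. The adjusted p was 0.0594 without potassium-starved replicate 2 and 0.0650 without both arrays titled as repeats. Between control shoots and control roots, APS4 and TAAC were lower in shoots (-1.27 ± 0.33 and -0.87 ± 0.16, limma adjusted p = 0.00309 and 0.000109) and APS3, also an ATP sulfurylase, was higher (0.85 ± 0.28, adjusted p = 0.0149). The APS3 call was lost without control root replicate 2 (adjusted p = 0.0995) or control shoot replicate 3 (0.0553).

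STZ, a zinc finger repressor of transcription induced by many stresses and raised in plants that lack SAL1, was the 1 measured gene of the PAP-response list. Its signal was 549.8, 481.0 and 436.3 in potassium-starved shoots, 432.7, 360.1 and 236.8 in caesium-treated shoots and 143.9, 358.9 and 120.5 in control shoots. The starved arrays lay above all control arrays, as they did for 17.2% of probe sets tested, and the nearest control was replicate 2. STZ rose by 1.32 ± 0.34 in potassium-starved against control shoots (limma adjusted p = 0.0160). The call was lost without control replicate 1 (adjusted p = 0.0615) or 3 (0.0635), or without potassium-starved replicate 1 (0.0507) or 2 (0.0508).

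No treatment call was made for the other lists. BGLU28, a beta-glucosidase raised by sulfur deficiency, had 21.1, 22.1 and 115.8 in potassium-starved shoots, 57.2, 20.7 and 32.2 in caesium-treated shoots and 28.5, 14.1 and 31.6 in control shoots. Its single high array among the starved shoots was replicate 3, and the smallest adjusted p of its differences of response was 0.107 in limma, for starvation in shoots minus roots (1.78 ± 0.70). In shoots alone the starved-minus-control difference was 0.52 ± 0.44 (limma adjusted p = 0.404). Roots also entered the value of 1.78, with signals of 12.9, 5.5 and 11.8 under starvation and 131.8, 13.2 and 39.9 in controls. BGLU28 passed the filter on low values through shoots alone. AT4G08170, listed under inositol phosphate metabolism, differed by 0.27 ± 0.18 between potassium-starved and control shoots (limma adjusted p = 0.288).

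The 5 genes on either side of SAL2 with a probe set of their own were examined next, AT5G63990 among them. Of these 10 genes 7 were tested in shoots and 9 in roots. In potassium-starved against control shoots AT5G63990 rose and AT5G64030 fell, 1 of 7 each way, close to the 12.1% of all probe sets that rose and the 17.1% that fell. In starved against caesium-treated shoots AT5G63990 rose and AT5G64030 and AT5G63940 fell, where 9.72% rose and 18.7% fell. The calls of AT5G63990 rest on the starved arrays, through which alone it passed the floor in shoots. In caesium-treated against control shoots 0 of 7 passed, where 0.997% of all did, and with the replicate number as a block AT5G63990 passed, as did PSAN, a subunit of photosystem I, which was lower (-0.53, adjusted p = 0.0460, against 0.131 without the block).

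AT5G64030, which lies 3 annotated genes after SAL2, went the other way. Its signal was 61.8, 50.0 and 67.3 in potassium-starved shoots, 163.4, 167.6 and 160.8 in caesium-treated shoots and 171.6, 155.8 and 171.6 in control shoots. The starved arrays were all low and the other 6 lay close together. Starved shoots lay wholly below control for 26.1% of probe sets tested and below caesium-treated for 29.1%. AT5G64030 fell by 1.27 ± 0.15 on the log2 scale against control (limma adjusted p = 0.000266) and by 1.26 ± 0.15 against caesium (adjusted p = 0.000679), and both calls held in all fits with 1 array left out. In roots it was at 131.6, 101.2 and 97.7 under potassium starvation, 201.0, 159.5 and 161.6 under caesium and 183.4, 199.8 and 144.8 in controls. The root differences missed the threshold, at -0.60 ± 0.16 against control (limma adjusted p = 0.0963) and -0.59 ± 0.16 against caesium (0.0607). The difference between starvation and caesium was lower in shoots than in roots by -0.66 ± 0.21 (limma interaction, adjusted p = 0.0495), where 6.97% of probe sets fell.

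AT5G63940 was lower in potassium-starved than in caesium-treated shoots by -0.53 ± 0.17 (limma adjusted p = 0.0357), a call lost in 5 of 6 fits with 1 array left out, all but the one without potassium-starved replicate 1, and with either rescaling of the arrays (0.113 and 0.137). AT5G64100 was higher in potassium-starved than in caesium-treated roots by 0.76 ± 0.18 (limma adjusted p = 0.0407), where 2.56% of probe sets rose, a call lost without caesium-treated replicate 1 (adjusted p = 0.157) or 3 (0.106), or without potassium-starved replicate 2 (0.124) or 3 (0.102). The AT5G64100 call was also lost with 1 added to the signals (adjusted p = 0.0570), without the filter on low values (0.0738) and with the scanner background as a covariate (0.0798). AT5G64010, whose annotated span overlaps the end of SAL2, had 45.6 to 51.8 in potassium-starved, 34.4 to 42.7 in caesium-treated and 33.9 to 43.3 in control shoots. Its difference between starved and control shoots was 0.22 ± 0.15 (limma adjusted p = 0.286). A long non-coding RNA, AT5G09175, is annotated across SAL2 as well, and the labels give no strand for the probes, so its part in the SAL2 signal was not tested. TOP3A, AT5G63930, CHR24 and AT5G64090 had no treatment call in an organ where they were tested.

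**Figure D3:**
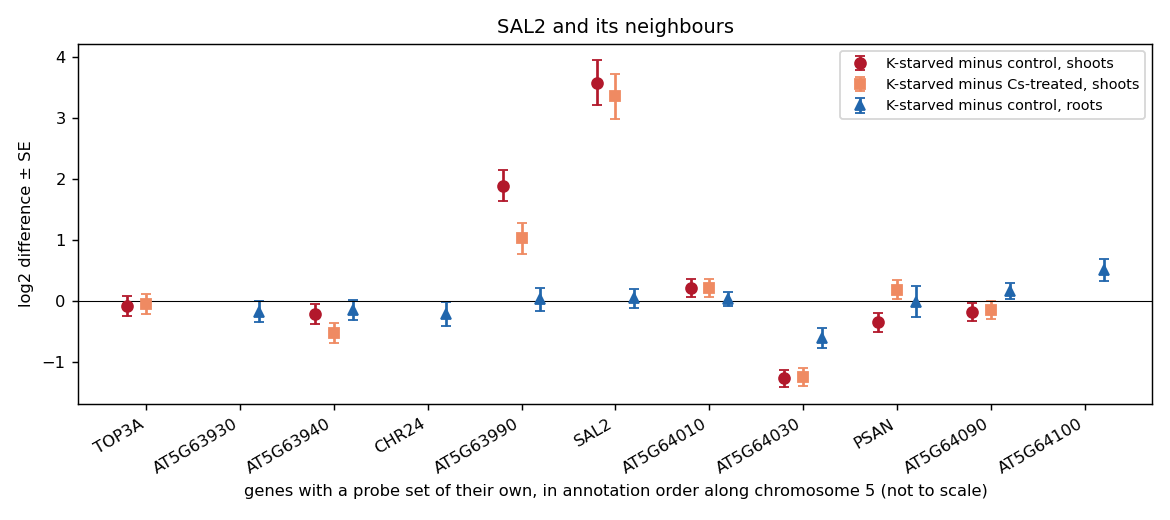
Log2 difference of signal + 16, with the SE of the limma fit, for SAL2 and the 5 genes on either side with a probe set of their own, in annotation order along chromosome 5 and not to scale. Circles are potassium-starved minus control shoots, squares potassium-starved minus caesium-treated shoots and triangles potassium-starved minus control roots, and genes below the floor of an organ have no symbol for it; SAL2 and AT5G63990 lie above 0 in shoots and AT5G64030 below.

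Between the organs of control plants, only the 6 neighbours with a mean over all treatments above the floor in both organs were set side by side. AT5G63930, CHR24 and AT5G64100 passed the filter through roots alone and TOP3A through shoots alone. Of these 6, AT5G63940, AT5G63990, AT5G64010 and AT5G64090 were lower in shoots than in roots and PSAN was higher, where 32.6% of the 15427 probe sets were lower and 23.3% higher. Those shares also count probe sets above the floor in only 1 organ, so they are not over a like set. AT5G63990 passed in shoots only through the starved arrays, and its control shoot mean of 13.7 was below the floor. PSAN had a log2 difference of 5.64 ± 0.22 (limma adjusted p = 3.65e-13). The AT5G64010 difference was -0.38 ± 0.12 (limma adjusted p = 0.0111), and its call was lost without control shoot replicate 1 (0.0594).

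The genes whose pattern was most like that of SAL2 were ranked by Pearson's r of log2(signal + 16) over the 9 arrays of an organ. The arrays share 3 treatments, so a high r over shoots mostly restates a gap between starved and other shoots, and the values are given without a test. Over shoots r was above 0.9 for 220 of 7354 named probe sets, and it ran from -0.99 to 0.99 with a median of -0.17. The 5 highest were AT5G46710 at 0.993, AT2G36670 at 0.988, AT3G15810 at 0.987, RING1 at 0.986 and AT1G18210 at 0.984. For AT5G63990 r was 0.888, and for AT5G64030 it was -0.952.

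RING1, a RING-type ubiquitin ligase, shared the height of the gap with SAL2 most nearly. It had 2586, 1706 and 1972 in potassium-starved shoots, 374.4, 472.9 and 481.0 in caesium-treated shoots and 330.6, 511.0 and 163.6 in control shoots. As for SAL2, replicate 1 was highest among the starved arrays, and replicate 2 was highest and replicate 3 lowest among the controls. The other genes closest to SAL2 in shoots had the same order, and all were picked by likeness over these same arrays. In roots, however, RING1 was below the floor of 27.7 on every array, at 12.3 to 23.5, while SAL2 was at 78.6 to 116.8. AT1G18210 had 1516 to 2031 in potassium-starved, 365 to 553 in caesium-treated and 273 to 466 in control shoots. The other 3 genes had smaller gaps, with AT5G46710 at 211 to 258 in potassium-starved, 88.3 to 105 in caesium-treated and 81.1 to 120 in control shoots.

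**Figure D4:**
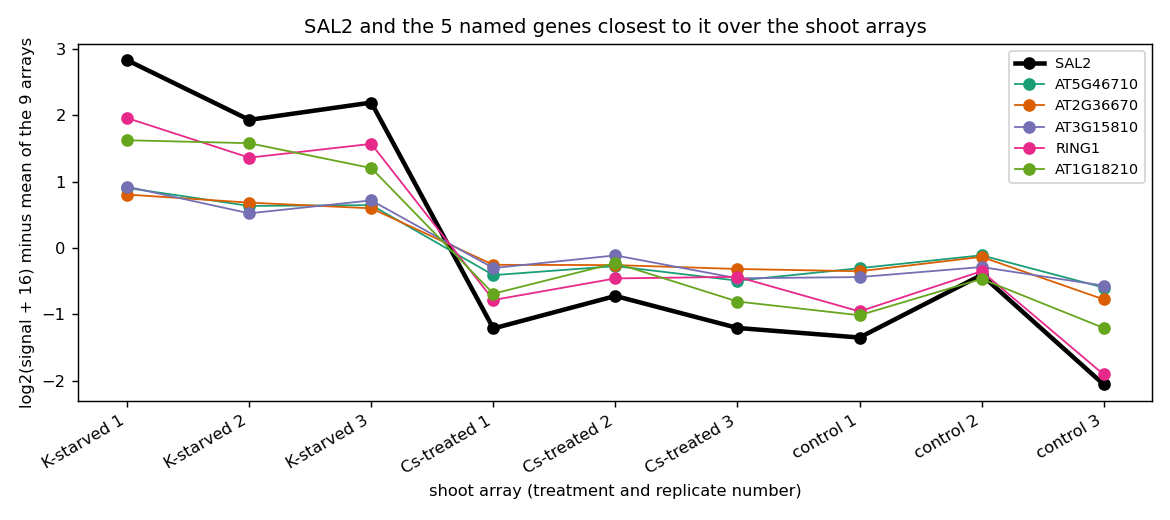
Log2(signal + 16) on each of the 9 shoot arrays, as the difference from each gene's mean over them, for SAL2 (thick black line) and the 5 named genes with the highest r to it; lines only join points of 1 gene. All 6 genes are high on the 3 potassium-starved arrays and lowest on control replicate 3, where SAL2 and RING1 fall furthest.

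Over roots, where SAL2 hardly varied, no named probe set of 7404 had r above 0.9. The 5 highest were AT3G13510 at 0.878, AT4G02550 at 0.852, AT3G46210 at 0.831, AT3G58800 at 0.817 and AT2G41060 at 0.787. For AT5G63990 r over roots was 0.351. None of the 5 genes closest in shoots was among the 5 closest in roots. Over the 6 group means, which set the organs side by side as well, AT1G05720 had r of 0.993, ATRER1A 0.990, AT1G15120 0.990, AT3G55600 0.988 and AT1G22270 0.988.

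By their means, those genes followed the order of starved shoots, roots and other shoots rather than the height of the gap. AT1G05720 averaged 481 ± 39.8 in potassium-starved, 266 ± 35.4 in caesium-treated and 248 ± 32.6 in control shoots, and 316 ± 36.0 in potassium-starved, 334 ± 30.8 in caesium-treated and 319 ± 42.3 in control roots (SD, n = 3 each). As with SAL2, starved shoots were highest, the root groups lay together and the other shoots were lowest. AT1G15120 averaged 975 ± 276 in potassium-starved, 494 ± 41.9 in caesium-treated and 519 ± 96.9 in control shoots, and 704 ± 185 in potassium-starved, 700 ± 76.3 in caesium-treated and 656 ± 7.39 in control roots (SD, n = 3 each). Unlike those of SAL2, the starved shoot arrays of AT1G15120, from 808.9 upwards, overlapped its starved roots, which reached 916.1. With only 6 points the coefficients over group means describe these arrays alone.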

How the data were processed

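Total RNA of 18 samples was labelled as cRNA and hybridised to 1 array each, per the labels' protocols. The deposited intensities are linear signals that the authors had already background-corrected and scaled to a common trimmed mean (2% left off at either end); no source used here names the software. The number of arrays, 3 per group, limits the precision. Replicate arrays correlated at 0.956 to 0.985, and no pair of arrays shared more than 1.33% of identical values.

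Signals were transformed to log2(signal + 16). Probe sets with a mean above the 40th percentile of an organ were tested, which put the floor at 26.7 for shoots and 27.7 for roots and left 13647 in each organ and 15427 above the floor in at least 1 organ. Linear models with moderated variances were fitted with limma 3.58.1 in R 4.3.3 to the 9 arrays of an organ, and to all 18 for contrasts between organs, with two-sided p-values adjusted by Benjamini-Hochberg in each comparison. The fits were also run on simulated data, with independent noise on each array and changes added only to probe sets well above the floor. That run cannot speak to values near the floor or to arrays that pair by replicate number.

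Of 22810 probe sets, 64 were controls, 13513 matched 1 gene in the platform annotation, 503 several, and 8730 were unnamed here. Gene order and symbols came from RefSeq for TAIR10.1; the array files name no build, so no coordinates are given. SAL2, the lists and the rule for named genes (every family member and neighbour with a probe set, up to 4 members of each other list past the threshold or the 1 with the smallest p, and the 5 closest to SAL2 in pattern) were chosen with earlier results of these data known.

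Replicate numbers were taken to pair arrays where the deviations of same-numbered arrays correlated above 0.1 for each of the numbers. The rule was met in shoots for starved against control (lowest r 0.319), caesium against control (0.495) and starved against caesium (0.207), and in roots for caesium against control (0.180), but not for starved against control (-0.03) or starved against caesium (0.0864). The main fits and their standard errors, those of SAL2 included, took no account of this pairing. Other pseudocounts, rescalings, no filter, the block, the scanner background as a covariate and leaving out arrays were tried.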

Additional observations from a re-analysis of the deposited data

Results flagged for a closer look

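Response differences between the organs were taken for the family, the substrate lists and the chromosomal neighbours, SAL2 excepted, and 3 passed the threshold in limma. The organ markers and the genes picked for their likeness to SAL2 were left out of this count. For AT5G63990 the shoot response to potassium starvation exceeded the root response by 1.87 on the log2 scale (adjusted p = 0.00197). For the same gene the difference between potassium starvation and caesium was larger in shoots than in roots by 1.28 (adjusted p = 0.0212). For AT5G64030 that difference was lower in shoots than in roots, at -0.66 (adjusted p = 0.0495). The AT5G64030 value was just inside the threshold: it was lost in 9 of 12 fits with 1 array left out, with adjusted p up to 0.131, and held without caesium-treated root replicate 1, potassium-starved root replicate 2 or potassium-starved shoot replicate 3. It was also lost in 6 of 8 other settings, with adjusted p up to 0.213.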

How the results depend on the processing

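No SAL2 difference that exceeded its standard error changed sign under any alternative. With 1 added to the signals, SAL2 was 4.49 higher in potassium-starved than in control shoots, 3.93 higher than in caesium-treated shoots, and lower in shoots than in roots by -2.27 in controls and -1.84 under caesium; its organ differences of response were 4.43 for starvation and 4.01 for starvation against caesium. With 64 added the same values were 2.50, 2.43, -0.83, -0.84, 2.47 and 2.48. Leaving out single arrays gave 3.19 to 4.01 for starved against control shoots, 3.10 to 3.55 for starved against caesium-treated shoots and -0.17 to 0.65 for caesium-treated against control shoots. In roots it gave -0.04 to 0.14 for starved against control, 0.02 to 0.25 for caesium-treated against control and -0.20 to 0.03 for starved against caesium-treated. Shoots minus roots ran from 1.75 to 2.20 in starved plants, -1.58 to -1.32 under caesium and -1.96 to -1.14 in controls. The organ differences of response ran from 3.14 to 3.97 for starvation, 3.17 to 3.62 for starvation against caesium and -0.28 to 0.54 for caesium. Control shoots are near the floor, so these sizes depend on the value added.

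Counts over all probe sets moved more. Past the threshold were 136 probe sets for caesium against control shoots, 200 for potassium-starved against control roots, 0 for caesium against control roots (1352 at an unadjusted p under 0.05), 690 for potassium-starved against caesium-treated roots and 33 for the organ difference of the caesium response. With the replicate number as a block these were 790, 724, 51, 1629 and 131, and it turned no family call other than those given above. Where replicate numbers did not pair the arrays it also called AT5G64030 lower in starved than in control roots (adjusted p = 0.0366) and than in caesium-treated roots (0.0251) and AT5G64100 higher in starved than in control roots (0.0408). The block also called organ differences of response for AT5G64030, AT5G64090 and TAAC (adjusted p = 0.0338, 0.0360 and 0.0458). Pairing was not examined for contrasts between organs. With 1 added there were 50 for caesium against control shoots, 130 for starved against control roots and 12 for the caesium organ difference, which was 110 with 64 added and 55 with arrays centred on their median. Without the filter there were 30 for caesium against control shoots, 93 for starved against control roots and 1 for caesium against control roots. With the scanner background as a covariate there were 206 for caesium against control shoots, 1 for starved against control roots, 331 for starved against caesium-treated roots and 11 for the caesium organ difference. Without both root arrays titled as repeats there were 127, 1 and 375 for starved against control, caesium against control and starved against caesium-treated roots, and 1132, 10 and 870 for the organ differences of starvation (1705 with all arrays), caesium and starvation against caesium (1888). Family genes past the threshold in potassium-starved against control shoots were 2 in place of 1 with either rescaling. For the organ difference of starvation against caesium they were 0 in place of 1 with 1 added and without the repeats. Leaving out single arrays gave 2387 to 3809 probe sets for starved against control shoots (3983 with all arrays), 2073 to 3670 for starved against caesium-treated shoots (3885) and 0 to 123 for caesium-treated against control shoots. In roots it gave 35 to 238 for starved against control, 0 to 13 for caesium-treated against control and 136 to 621 for starved against caesium-treated. For control shoots against control roots it gave 7846 to 8000 (8630), and for the organ differences of response 1104 to 2175 for starvation, 7 to 60 for caesium and 1010 to 2242 for starvation against caesium. Family counts ran from 0 to 1 for starved against caesium-treated shoots and for its organ difference, and from 4 to 5 between control organs. The causes were not tested.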
